A study of Homo sapiens with 15 samples.

Results

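The 278491 chromatin loops called from H3K4me3 HiChIP in LNCaP cells were compared between vehicle and 4 h of dihydrotestosterone (DHT). They were all loops of the promoter-centred reference set, of 505995 distinct loops in the series, and each pair of anchors was counted once. LNCaP is a human prostate cancer cell line that grows in response to androgen, and DHT is a potent androgen. Cells of both groups had been kept for 3 days in medium without androgen. The 0 m group then received ethanol vehicle, and the 4 h group received 10 nM DHT for 4 h. Each group was 1 library, so every difference below compares those 2 libraries and no test between conditions was possible. Intervals are exact 95% intervals for the ratio of read pairs and cover counting error only. Where a time course is given, its 5 values start with vehicle and go on with 30 m, 4 h, 16 h and then 72 h of DHT.

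HiChIP joins DNA ends that lie close together in the nucleus and then enriches the joined fragments with an antibody. H3K4me3 is a histone mark of active promoters, so these loops start mostly at promoters. Genes that respond to androgen are often controlled from enhancers far from their promoters, which such loops can bring close. The mark also lies across the first part of an active gene, so loops between neighbouring bins at a promoter are common.

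HiChIP contacts can be read only where the DNA was cut, by MboI at the word GATC, so an anchor is shown from 1 of the largest rises and 1 of the largest falls described below. The deposited anchor is the middle 1 kb of a 5 kb bin, and shown is the middle 300 bases of the anchor at the promoter, in GRCh37 on the plus strand, and GATC would be in capitals. The anchor at CDK5R1 lies at chr17:30812351-30812650 and that at ZNF629 at chr16:30797351-30797650.
CDK5R1 anchor: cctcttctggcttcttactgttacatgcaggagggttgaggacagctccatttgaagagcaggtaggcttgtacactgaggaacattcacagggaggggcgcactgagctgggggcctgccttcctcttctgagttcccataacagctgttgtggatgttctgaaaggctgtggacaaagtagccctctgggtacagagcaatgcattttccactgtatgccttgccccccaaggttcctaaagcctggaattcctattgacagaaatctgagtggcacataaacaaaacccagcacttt
ZNF629 anchor: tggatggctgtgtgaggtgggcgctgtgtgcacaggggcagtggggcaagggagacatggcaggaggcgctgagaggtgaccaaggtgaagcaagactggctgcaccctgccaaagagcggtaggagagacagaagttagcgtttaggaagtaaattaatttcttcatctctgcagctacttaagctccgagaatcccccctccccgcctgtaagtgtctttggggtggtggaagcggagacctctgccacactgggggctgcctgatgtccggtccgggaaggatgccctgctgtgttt
Neither window holds GATC. The whole 1 kb anchor at CDK5R1 holds it 3 times and that at ZNF629 1 time. Over all 150544 distinct anchors of the set, 57.8% held GATC in their middle 300 bases. A match is a description of these letters alone, and no match says only that they are not in the window.

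The libraries differed in depth. The loops held 1820771 read pairs at 0 m and 7765833 at 4 h, a ratio of 4.27, and the other H3K4me3 libraries held between 1560331 and 2909403. The median loop had 3 read pairs at 0 m and 11 at 4 h. At 0 m, 35795 loops (12.9%) had no read pair, which allows a contact frequency of up to 0.846, and at 4 h 654 loops (0.235%) had none. When the 4 h read pairs were thinned to the vehicle total, 36642 loops (13.2%) had none. At this equal depth 27247 loops were seen only at 4 h and 28094 only at 0 m. The label was checked against cell type markers. All 8 luminal prostate markers had loops, with a summed contact of 558.4 at 0 m and 606.5 at 4 h. KRT8 and KRT18 share their loops, and this sum counts them once for each gene, each time at 128.0 and 113.1. Of the 8 markers, 5 reached the minimum contact used for promoters below, with KRT8 and KRT18 counted separately. None of the 3 basal markers (KRT5, KRT14 and TP63) had a loop. Loops were present at 3 of 4 stroma, 2 of 4 blood, 1 of 3 liver and 2 of 4 neuroendocrine markers, none of which reached the minimum, and the highest summed contact of these lists at 0 m was that of the stroma markers, 36.1.

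Whole chromosomes differed between the libraries, and this touches every locus named below. Summed contact was 1.20-fold higher at 4 h over all loops, a log2 change of 0.26 (0.26 to 0.26). On chromosomes 13, 21 and 2 the change was 0.58, 0.52 and 0.50. On the other 20 chromosomes, leaving out chromosome Y and the mitochondrial DNA, it ran from 0.07 (chromosome 15) to 0.35 (chromosome 5). The shift ran along the chromosomes: in windows of 20 Mb holding at least 200 loops, all 13 windows of chromosome 2 lay between 0.36 and 0.61 and the 5 windows of chromosome 13 between 0.44 and 0.83, against a median of 0.29 over 135 windows elsewhere, which ran from -0.13 to 0.50 and so overlapped those of both. Other chromosomes changed within themselves, among them chromosome 6, from -0.00 below 60 Mb to 0.36 above, and chromosome 4, from 0.31 below 100 Mb to 0.09 above. At 30 m the changes of chromosomes 2, 13 and 21 against the same vehicle library were 0.10 to 0.13, and in the separate H3K27ac tables their 4 h changes were -0.01 to 0.02. The part of this shift in the results was not tested, and values relative to the change of the own chromosome are given for the main classes, most gene lists and several named loci.

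**Figure D1:**
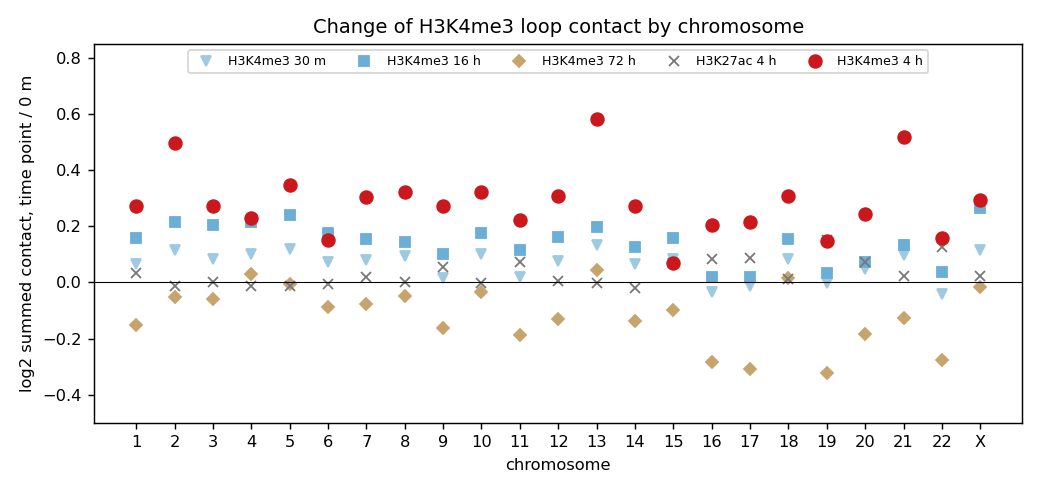
Log2 ratio of summed contact frequency to 0 m (y axis) for each chromosome (x axis), over the loops of the H3K4me3 set. Red circles are the 4 h H3K4me3 library, the other symbols the remaining H3K4me3 time points, which share the 0 m library, and crosses H3K27ac at 4 h. Chromosomes 2, 13 and 21 stand above the rest at 4 h in H3K4me3, at 0.50, 0.58 and 0.52.

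Over all distances together, loops that joined promoters rose most. The mean contact frequency of the 34560 loops with a promoter at both anchors went from 3.16 at 0 m to 3.92 at 4 h, a log2 change of 0.31 (0.31 to 0.32). The 188806 loops from a promoter to another site changed by 0.27 (0.26 to 0.27) and the 55125 loops without a promoter by 0.17 (0.16 to 0.17). The order was the same over loops of at least 20 kb, at 0.31, 0.22 and 0.12, and relative to the own chromosome, at 0.06, 0.00 and -0.10. Under 20 kb it was not: between neighbouring bins promoter to other loops changed by 0.46 and promoter to promoter loops by 0.36 (0.20 and 0.10 relative to the own chromosome), and at 10 to under 20 kb they changed by 0.18 and 0.14. The loops without promoter were thus higher at 4 h as deposited and lower when set against their own chromosomes. At 20 kb or more promoter to other loops were also lower on that scale, at -0.05. There promoter to promoter loops stood at 0.07 and loops without promoter at -0.15. Loops that were also in the H3K27ac set changed by 0.34, and those in the H3K4me3 set alone by 0.19. Relative to the own chromosome these changes were 0.08 and -0.07.

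The change depended on the distance between the anchors. Loops between neighbouring 5 kb bins changed by 0.40 (0.40 to 0.41). Loops of 10 to under 20 kb and of 20 to under 50 kb changed by 0.16 each. It then grew, from 0.16 at 50 to under 100 kb to 0.31 at 200 to under 500 kb and 0.38 (0.37 to 0.39) at 500 to under 1000 kb, and was 0.35 (0.33 to 0.38) at 1000 kb or more. Set against their chromosomes neighbouring bins changed by 0.15, loops of 10 to under 100 kb by -0.10 and loops of 500 to under 1000 kb by 0.11. Promoter to promoter loops of 500 to under 1000 kb changed most, by 0.56 (0.53 to 0.59), from a mean contact of 0.531 to 0.781, and those of 1000 kb or more by 0.45. In H3K27ac promoter to promoter loops of 500 to under 1000 kb changed by -0.13 and all loops by 0.04. Contact also moved with base composition: the fifth of loops with the highest GC content changed by 0.16, and the other 4 classes by 0.28 to 0.33, or -0.08 and 0.01 to 0.06 relative to the own chromosome. The number of MboI sites, where the DNA was cut, moved little with the change, which was 0.25 to 0.27 in all 5 classes.

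**Figure D2:**
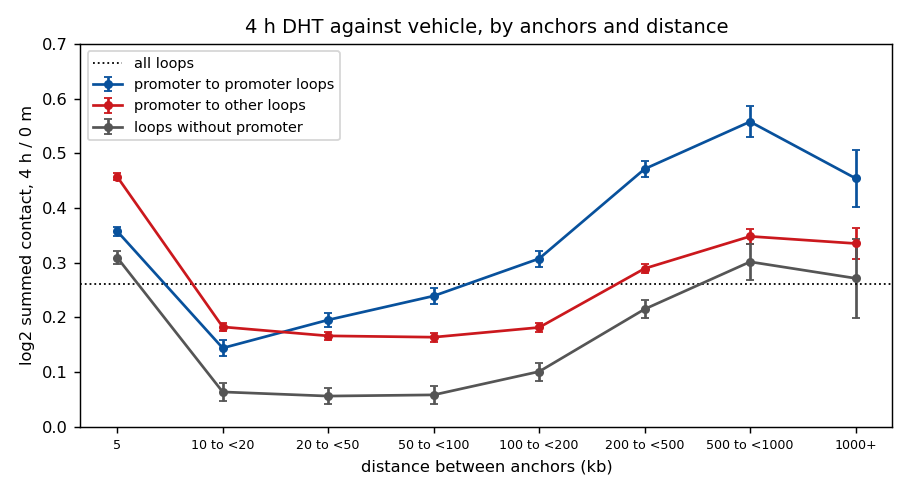
Log2 ratio of summed H3K4me3 contact frequency, 4 h to 0 m (y axis), by distance between anchors in kb (x axis) and by promoters at the anchors. Bars are exact 95% counting intervals and the dotted line is the value over all loops, 0.26. Promoter to promoter loops rise with distance from 10 kb, to 0.56 at 500 to under 1000 kb, and stand at 0.45 beyond.

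Single loops were compared where the mean contact over the 30 m, 16 h and 72 h libraries was at least 4, which 24942 loops reached. Of these, 1250 (5.01%) were at least 2-fold higher at 4 h and 183 (0.734%) at least 2-fold lower, on the scale of log2(contact + 0.5). The median change was 0.22. When both libraries were scaled to the same total, 470 loops were higher and 511 lower. Relative to the own chromosome 409 were higher and 461 lower. With the 4 h library thinned to the depth of the vehicle library, on the deposited contact scale, 1539 were higher and 490 lower. Loops between neighbouring bins were 44.6% of the higher loops and 23.9% of all loops compared. Over the time course the higher loops had median contacts of 4.51, 7.17, 11.6, 7.15 and 6.05. Their vehicle value was the lowest of the 5 libraries. Choosing loops by a high ratio of 4 h to 0 m favours this, so it is no separate result. The lower loops had medians of 7.90, 5.81, 3.09, 6.38 and 5.77, with the 4 h library lowest, which their selection favours likewise.

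Loops were ranked on log2(contact + 0.5), and the changes given for single loops are without the pseudocount, so that their order can differ. The 5 largest rises by this ranking were all between neighbouring 5 kb bins at or beside a promoter. The first lay at SPRY2, a feedback inhibitor of receptor tyrosine kinase signalling on chromosome 13. Its time course was 1.69, 5.47, 21.5, 6.57 and 5.77, with only 6 read pairs at 0 m and a log2 change of 3.67 (2.52 to 5.12) and 3.08 relative to its chromosome. The related gene SPRY1 on chromosome 4 was also among the 5, from 1.13 to 7.84 with 4 read pairs at 0 m. The loop at ZNF385B, a zinc finger gene on chromosome 2, went from 3.67 to 28.4, a change of 2.96 and 2.46 relative to its chromosome. The loop at ZIC2, a developmental transcription factor gene on chromosome 13, went from 5.08 to 34.8, a change of 2.78 and 2.19 relative to its chromosome. The loop at CDK5R1, which encodes an activator of the kinase CDK5, went from 7.05 to 44.1 on chromosome 17. At these last 3 loops the 4 h library stood apart, with 30 m, 16 h and 72 h values between 3.85 and 12.3. Ranking by the 4 h rise favours such loops. Without the pseudocount the 70 kb loop from the MANBA promoter to an exon of MANBA changed by 3.59, but it had 1 read pair at 0 m and an interval from 1.04 to 8.93.

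Falls were fewer as deposited, but not at the same total or relative to the own chromosome, as the counts above show. Relative to the own chromosome the 5 largest falls changed by -2.17 to -2.62 and the 5 largest rises by 2.19 to 3.08. The loop from the ZNF629 promoter to a site between genes 20 kb away on chromosome 16 went from a contact of 13.8 to 3.09 and stood at 13.9 at 16 h, a log2 change of -2.16 (-2.81 to -1.52). The loop to the TAPBPL promoter on chromosome 12, whose product takes part in loading antigen onto MHC class I, went from 10.2 to 2.38 (-2.09). Loops at ZDHHC11, SIPA1 and SLC22A3 completed the 5 largest falls by the same ranking, at -2.27, -2.08 and -2.02. All 5 were lowest at 4 h among the 5 libraries, which ranking by the 4 h fall favours.

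Contact was next summed over the loops of each promoter. Of 15139 protein-coding promoters with a loop, 5320 had a mean summed contact of at least 50 over the 30 m, 16 h and 72 h libraries. Their median log2 change was 0.26, and 82.6% were higher at 4 h. At least 1.5-fold higher were 616 promoters (11.6%), and at least 1.5-fold lower were 18 (0.338%). Promoters that share all their loops count separately in these shares. The 5320 promoters held 4241 distinct sets of loops, of which 522 were higher and 16 lower. Relative to the median promoter, a scale that balances the directions by construction, 115 (2.16%) were higher and 113 (2.12%) lower, and the higher share of all calls was 50.4%, against 97.2% as deposited. On chromosomes 2, 13 and 21, 37.2% of the 325 promoters compared were called higher, and elsewhere 9.91% of 4995. Relative to the own chromosome, 86 promoters (1.62%) were higher and 101 (1.90%) lower.

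The largest rise was at SIX4, a homeobox transcription factor gene on chromosome 14. The time course of its summed contact was 51.9, 62.2, 144.4, 59.2 and 69.8, a log2 change of 1.48 (1.26 to 1.70) and 1.20 relative to its chromosome. Neighbouring bins made up 43.5% of this contact at 0 m and 65.3% at 4 h, and loops of at least 20 kb alone changed by 0.94. RAP2B, which encodes a small GTPase of the RAS family, went from 49.1 to 126.4, a change of 1.36 (1.14 to 1.60), and changed by 1.40 over loops of at least 20 kb. Its rise was therefore not limited to neighbouring bins. GTF2E2, a subunit of the general transcription factor TFIIE, changed by 1.37, and SLC12A2, a sodium, potassium and chloride cotransporter, by 1.30. PLAGL2 and POFUT1, which share all their loops, changed by 1.19. EFNB2 (1.18, chromosome 13), XPNPEP1 (1.16), AGPAT3 (1.12, chromosome 21), PPHLN1 with YAF2 (1.12) and STIMATE (1.11) followed. EFNB2 and AGPAT3 lay on chromosomes that stood apart, and relative to these their changes were 0.60 and 0.61. In H3K27ac, of these 10 promoter groups XPNPEP1 (0.60), AGPAT3 (0.18) and EFNB2 (0.02) rose on the log2 scale. The others changed by -0.48 (STIMATE) to -0.0023 (SLC12A2).

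The largest fall was at THBS1, which encodes the matrix protein thrombospondin-1. The time course of its summed contact was 44.0, 39.3, 17.1, 66.3 and 55.5, a log2 change of -1.36 (-1.67 to -1.06). The 4 h library was the lowest of the 5, which ranking by the fall favours, and the H3K27ac contact of THBS1 changed by 0.21. TAPBPL followed at -1.14 and DUSP8, a phosphatase of MAP kinases, at -0.93. The zinc finger genes ZNF629 (-0.92), ZNF785 (-0.88) and ZNF132 (-0.78), CHID1 (-0.82), GNPTG with TSR3 (-0.80), the adrenergic receptor gene ADRA2A (-0.77) and SDC2 (-0.75) completed the 10. The bins of promoters called lower had a median GC content of 54.7%, against 49.1% in those called higher.

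A list of androgen-induced genes had the highest median of the pathway lists, over 14 promoters. Of 32 genes, 14 reached the minimum contact, and 4 of these were at least 1.5-fold higher, against 11.6% of all promoters, with none lower. Relative to the median promoter only RHOU (0.65) was 1.5-fold higher, 1 of 14 against 2.16% of all promoters, and UAP1, CENPN and ELL2 stood at 0.45, 0.37 and 0.33. Their median change was 0.50, against 0.26 over all promoters, and 0.24 relative to the own chromosome, against 0.01. RHOU, which encodes a small GTPase, had a summed contact of 54.2, 68.7, 101.4, 82.7 and 56.9 over the time course, a 4 h change of 0.91 (0.69 to 1.13). UAP1, an enzyme of UDP-N-acetylglucosamine synthesis, went from 66.8 to 109.4 (0.71), CENPN, a centromere protein gene, from 112.2 to 173.6 (0.63), and ELL2, a transcription elongation factor gene, from 55.8 to 84.1 (0.59). ZBTB16, of the highest contact in the list, changed by 0.26. SPDEF, a transcription factor of luminal cells, was the only one of the 14 below 0, at -0.17. A longer list of androgen response genes, the hallmark set, lay closer to all promoters: of 40 promoters compared 6 (15.0%) were higher, the median was 0.31, and relative to the median promoter 1 was called higher, near the 2.16% of all promoters. A list of genes of mid-high expression in these cells, of which 50 promoters were compared, had a median of 0.38 with 16.0% higher. Set against their chromosomes the medians of these lists were 0.08 and 0.09. Of the 12 androgen-repressed genes only CAMK2N1 and ST7 were compared, at 0.10 and 0.58.

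**Figure D3:**
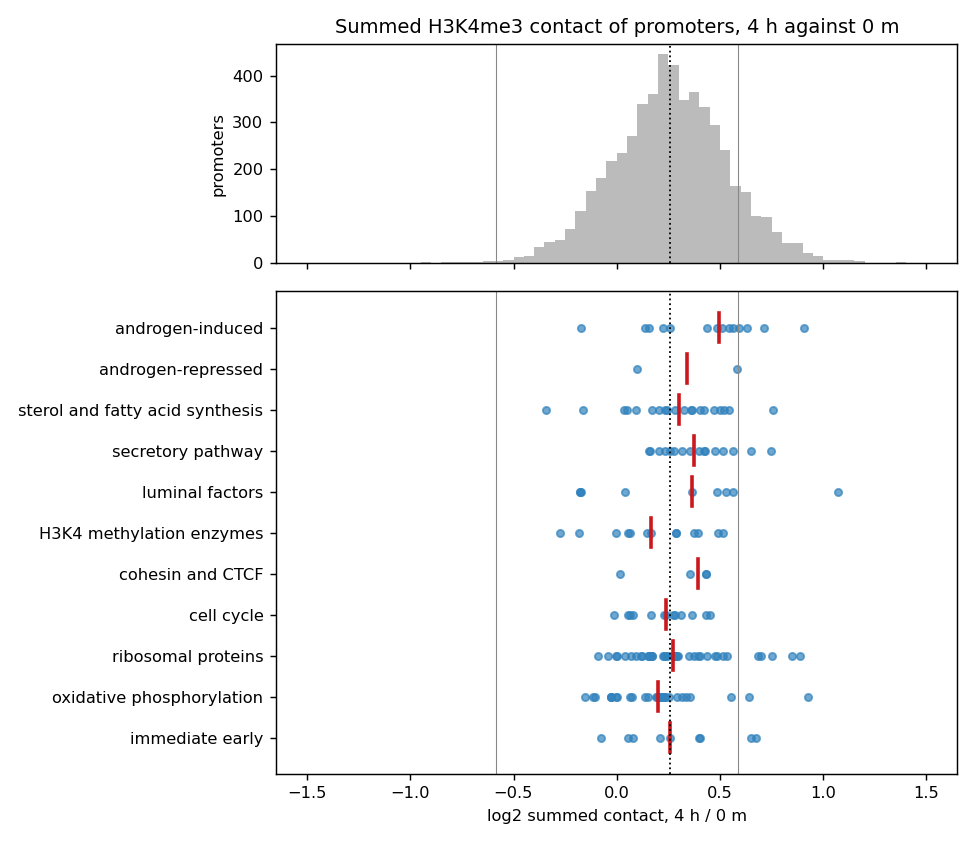
Log2 change of summed H3K4me3 contact at 4 h against 0 m (x axis). The upper panel is the number of promoters (y axis) among the 5320 compared, and in the lower panel each point is a member of a gene list and each red bar the list's median. Grey lines mark 1.5-fold and the dotted line the median promoter, 0.26. The androgen-induced median, 0.50, lies furthest to the right.

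Metabolic, secretory and ribosomal genes had medians closer to that of all promoters, and 5.00% to 12.5% of their promoters were called higher, near or below the 11.6% of all promoters. Among 20 promoters of sterol and fatty acid synthesis 1 was called higher, SREBF2, the transcription factor that drives cholesterol synthesis, at 0.76 (0.59 to 0.93), and the median was 0.30. Among 16 promoters of the secretory pathway 2 were higher, the retrieval receptor KDELR2 (0.75) and the chaperone HSP90B1 (0.65), with a median of 0.38. Among 40 ribosomal protein promoters 5 were higher, from RPL24 at 0.69 to RPL7 at 0.89, with a median of 0.27. Among 31 promoters of oxidative phosphorylation 2 were higher, UQCRH (0.92) and ATP5PO (0.64), and the median was 0.20. No member of these lists was called lower. Relative to the median promoter RPL7, RPS24 and UQCRH alone were called higher, and 1 promoter of sterol and fatty acid synthesis was called lower, near the 2.16% and 2.12% of all promoters. Set against their chromosomes the medians of the 4 lists, in the order given, were 0.06, 0.13, 0.04 and -0.07.

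Few regulators were called, and the shares were close to the background or rested on few promoters. Among 9 luminal factors only FOXA1, a pioneer transcription factor of luminal cells, was called higher, a share of 11.1% against 11.6% of all promoters. Over the time course its summed contact was 50.8, 64.6, 106.7, 48.3 and 66.0, a 4 h change of 1.07 (0.85 to 1.30) and 0.98 over loops of at least 20 kb. H3K27ac contact of the same loops changed by -0.38. Among 9 immediate early genes EGR1 (0.67) and MYC (0.65) were higher, at 0.33 each relative to their chromosomes. Relative to the median promoter FOXA1 alone of the lists of regulators was called higher, at 0.81, against 2.16% of all promoters. None of 13 H3K4 methylation enzymes, 4 cohesin and CTCF genes or 13 cell cycle genes was called in either direction, with medians of 0.17, 0.39 and 0.24. Set against their chromosomes these medians were -0.06, 0.03 and 0.00, and those of the luminal factors and immediate early genes 0.04 and 0.05. The luminal keratin genes KRT8 and KRT18, which share their loops, changed by -0.18 (-0.33 to -0.02).

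The study grouped genes by the time of their highest nascent transcription, and lists chosen on samples of the same experiment are not independent evidence. The 1911 loops of the 4 h class changed by 0.31 (0.29 to 0.34), against 0.21 for the 30 m class, 0.22 for the 16 h class and 0.25 for the 72 h class. Of 32 promoters of the 4 h class that were compared, 5 were higher (15.6%, against 11.6% of all promoters), with COG7 (0.73), CHD1L (0.72) and USP34 (0.72, chromosome 2) first. Relative to their chromosomes these 3 stood at 0.52, 0.45 and 0.22. Relative to the median promoter none of the class was called higher and 1 was called lower, and relative to the own chromosome the median of the class was 0.02. The class therefore lay close to all promoters.

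At the kallikrein genes H3K4me3 contact was highest later than 4 h. KLK3 encodes prostate-specific antigen, a secreted protease, and KLK2 a related protease. The summed contact of KLK3 over the time course was 39.5, 41.3, 53.4, 123.3 and 44.8, a 4 h change of 0.44 (0.17 to 0.71). That of KLK2, which did not reach the minimum contact, was 11.9, 12.0, 15.4, 54.5 and 17.3, and its 4 h change of 0.38 had an interval from -0.11 to 0.89. In H3K27ac the contact of both changed more at 4 h, by 0.86 for KLK3, from 112.2 to 204.3, and by 0.85 for KLK2. UAP1 likewise was highest at 16 h, at 121.2, and returned to 66.5 at 72 h. ABCC4, a transporter gene on chromosome 13 that did not reach the minimum contact either, went from 33.8 to 58.2, a change of 0.78 (0.50 to 1.07) and 0.20 relative to its chromosome.

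**Figure D4:**
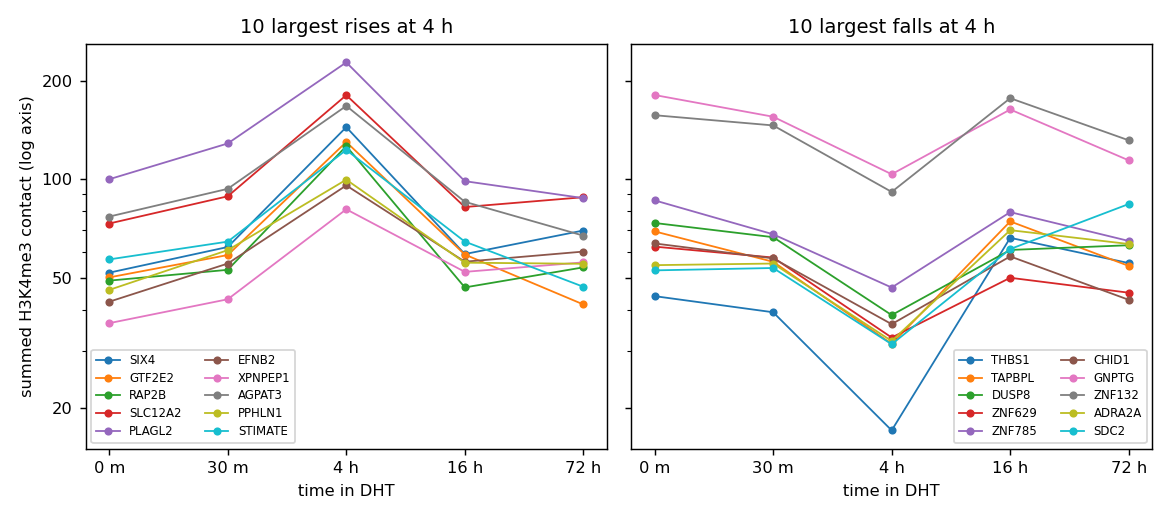
Summed H3K4me3 contact on a log axis (y axis) over time in DHT (x axis), 1 library per time point, for the promoters with the 10 largest rises (left) and the 10 largest falls (right) at 4 h. Among promoters that share all their loops 1 is drawn. SIX4 peaks at 144.4 at 4 h, and THBS1 is lowest at 4 h, at 17.1.

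The strongest partner of a promoter was mostly kept. Of 5279 promoters that reached the minimum contact and had at least 5 loops, 90.6% (exact binomial interval 89.8 to 91.4) had the same strongest loop at 0 m and 4 h, and in 99.3% the strongest at 0 m was among the 3 strongest at 4 h. The binomial interval treats promoters as independent although some share all their loops, and does not cover spread between cultures. The median length of the strongest loop was 5 kb, the shortest in the set. Among loops of at least 20 kb the same loop was strongest in 67.3% of 5264 promoters. In the H3K27ac tables the 1250 higher loops had a median H3K27ac change of 0.04, the 183 lower loops 0.34 and all loops compared 0.09.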

How the data were processed

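H3K4me3 HiChIP libraries of LNCaP cells at 0 m and 4 h were compared, with the other time points and H3K27ac for reference. Per the labels and methods, the authors trimmed reads with Trim Galore 0.5.0, aligned them to hg19 with HiC-Pro 3.1.0 and Bowtie2, merged reads of all time points of each mark to call reference loops with FitHiChIP, and scaled contacts by TMM. The deposited values are this contact signal for each loop and library. Each value was a whole multiple of the smallest value above 0 in its library (100%, within 0.001 of a read pair), so read pairs were recovered by division. No table kept H3K27ac replicates apart, and whether both entered is not given in the sources used here. Only the H3K4me3 loop set was used. Promoters were protein-coding start sites of Gencode (GRCh37) within 2500 bp of an anchor, without mitochondrial genes, and symbols were matched to gene lists. Single loops used a pseudocount of 0.5.

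With 1 library a side there was no test: ratios have exact Clopper-Pearson intervals. Calls were 2-fold for loops and 1.5-fold for promoters. A count model was not fitted. The calculation was tested on simulated data. Named were the 10 largest promoter rises and falls, the 5 largest loop rises and falls, list members of highest contact or past 1.5-fold (in part summarised), and KLK2, KLK3, UAP1 and ABCC4. Some genes and sets of loops are not reported here. Members and lists were chosen with earlier results of these data known. Scipy 1.17.1, pandas 2.3.3 and numpy 2.4.6 under Python 3.11.15 were used. Alternatives were other scalings, thinning, other minimums and distances. Those of single chromosomes, and counts of called loops of at least 20 kb, were chosen after seeing the data.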

Additional observations from a re-analysis of the deposited data

How the results depend on the processing

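No paired analysis was possible because each H3K4me3 time point has 1 library, the H3K27ac tables carry no replicate number, and no result comes from a test. Scaling both libraries to the same total subtracts 0.26 from each log2 change by construction, leaving 0 for all loops, 0.049 for promoter to promoter loops, 0.0047 for promoter to other loops, -0.093 for loops without promoter, 0.064 for loops under 20 kb, 0.11 for loops of 500 kb or more and 0.053 for the 4 h nascent class. Relative to the own chromosome, an alternative chosen after seeing the data, the values were 0 for all loops, 0.063 for promoter to promoter loops, 0.000513 for promoter to other loops, -0.095 for loops without promoter, 0.068 for loops under 20 kb, 0.10 for loops of 500 kb or more and 0.047 for the 4 h nascent class. Loops without promoter thus turned lower under both. Without chromosomes 2, 13 and 21, also chosen after seeing the data, they were 0.24 for all loops, 0.29 for promoter to promoter loops, 0.24 for promoter to other loops, 0.15 for loops without promoter, 0.30 for loops under 20 kb, 0.36 for loops of 500 kb or more and 0.29 for the 4 h nascent class. As a median over loops whose mean contact reached 4, the values were 0.26 for promoter to promoter loops, 0.21 for promoter to other loops and 0.14 for loops without promoter. Over loops of at least 20 kb, promoter to other loops changed by 0.22 and loops without promoter by 0.12. Relative to the own chromosome these were -0.05 and -0.15. 

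The following alternatives moved a count by over 1.5 times, except the thinned count of higher loops and the shares of strongest loops kept. At the same total, 470 loops were higher and 511 lower, and 115 promoters were higher and 114 lower. Relative to the own chromosome the counts were 409 and 461 loops and 86 and 101 promoters. Thinning the 4 h library, on the deposited contact scale, gave 1539 higher loops, of which 982 were called without thinning. It also gave 490 lower loops and 29 lower promoters. A contact minimum of 2 gave 3696 higher and 690 lower loops, a minimum of 8 gave 494 and 45, a pseudocount of 1 gave 120 lower, and loops of at least 20 kb, a limit chosen after seeing the data, held 505 and 74. Promoter minimums of 25 and 100 gave 1153 and 135 higher and 63 and 3 lower, and loops of at least 20 kb gave 226 and 10. The strongest loop was kept in 88.9% after thinning and was among the 3 strongest in 99.3%. The H3K27ac change of higher loops, 0.04 at a contact minimum of 4, lost its direction at a minimum of 2, at -0.000247. The cause of these shifts was not tested, beyond the scaling itself. In all, 18 of 70 alternative values stayed within the interval or within 1.5 times the count. With 1 library a side, spread between cultures is unknown.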

Other observations

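The set held 1 loop on the mitochondrial DNA, which was left out of the promoters. Its contact frequency was 144.7 at 0 m and 47.9 at 4 h, a log2 change of -1.59, and at 30 m, 16 h and 72 h its changes against the same vehicle library were -1.65, -0.30 and 0.10.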
